A study of Mus musculus with 4 samples.

Results

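Retinoid metabolism in resting mouse skin was followed through 9 genes named for their roles: Rbp4, Stra6, Dhrs9, Aldh1a1, Aldh1a2, Aldh1a3, Crabp1, Crabp2 and Cyp26b1. A gene was measured where the platform annotation listed a probe set (a group of short array probes for one transcript) with that gene alone, which held for 8 of the 9, in 10 probe sets of 45101. Dhrs9 had no such probe set and was not analysed here. Each gene is represented by its brightest set, by mean log2 intensity on the 4 arrays, and that mean is the measured value used in choosing. The 9 names were set with earlier results of these arrays known, so the differences below describe these arrays and are not independent evidence.

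Whole dorsal skin of male C57B6 mice was hybridised to 4 Affymetrix arrays, 2 from late telogen at postnatal day 59 (P59) and 2 from middle telogen at postnatal day 54 (P54). Telogen is the resting phase of the hair cycle. No treatment or genetic change is given for either group. The labels call the samples of a group biological replicates without saying which or how many animals they came from. The p-values of limma therefore rest on the spread between these samples, largely borrowed from other genes (2 residual and 8.18 prior degrees of freedom). Whole skin mixes many cell types, and fewer cells of a type cannot be told apart from less RNA per cell.

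Values are log2 of the deposited intensity, and 1 unit is a 2-fold step. Median log2 intensity was 6.07 and 6.02 on the P59 arrays and 6.06 and 6.12 on the P54 arrays. P59 replicate 2 stood apart, at 35.4 on a first principal component holding 57.3% of the variance, where P59 replicate 1 scored -4.31 and the P54 arrays -8.57 and -22.5. Differences that moved by over 1.5 times without it are given both ways where the gene is described. Summed intensity of 7 dermal fibroblast markers was 96612 and 101705 on the P59 arrays and 98436 and 96023 on the P54 arrays. The 7 basal epidermal markers summed to 30217 and 26544 on the P59 arrays and 35895 and 38932 on the P54 arrays, so transcripts of dermis and epidermis were present on each array.

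Cells make retinoic acid from vitamin A. Retinol travels in blood on the carrier Rbp4, can enter cells through the receptor Stra6, and is oxidised to retinal by dehydrogenases, among which Dhrs9 has been placed. Retinal is then oxidised to retinoic acid by the enzymes Aldh1a1, Aldh1a2 and Aldh1a3. The acid is held in the cytoplasm by the binding proteins Crabp1 and Crabp2, acts in the nucleus through receptors of the RAR and RXR families, and is broken down by Cyp26 enzymes such as Cyp26b1. In skin, retinoids are known for their effects on epidermal differentiation, sebaceous glands and the hair cycle.

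Between late and middle telogen the steps of this pathway did not share a direction. The synthesis enzyme Aldh1a3 had the largest difference, with both P59 arrays over 1.4 log2 units above both P54 arrays. Aldh1a1 and the receptor Stra6 were also higher on both P59 arrays, while the binding protein Crabp1 and the breakdown enzyme Cyp26b1 were lower on both. Rbp4, Aldh1a2 and Crabp2 overlapped between the groups.

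Of the 8 measured genes, 6 lay above the intensity filter (the 40th percentile of gene means, log2 6.58) and entered the limma fit over 10916 genes. Aldh1a3 was the nearest above it, with a mean of 6.70 over the 4 arrays, and Stra6 the nearest below, with 5.77. In that fit 0 of the 6 passed an adjusted p of 0.05 after Benjamini-Hochberg adjustment over all genes tested, against 0.0183% of all genes. At an unadjusted p under 0.05 there were 4 of the 6, against 6.49% of all genes, namely Aldh1a3 and Aldh1a1 (higher) and Crabp1 and Cyp26b1 (lower). The groups did not overlap for 5 of the 8 measured genes, against 35.6% of all 18193 genes with a probe set. Of the 5, 3 were higher at P59, against 23.3% of all genes, and 2 lower, against 12.3%. Because the genes were named with these differences known, nothing is read from these shares. The median difference of the 8 genes was 0.06, and that of all 18193 genes 0.07. Log2 intensities of different probe sets are not on a shared scale, so levels are compared within a gene.

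**Figure D1:**
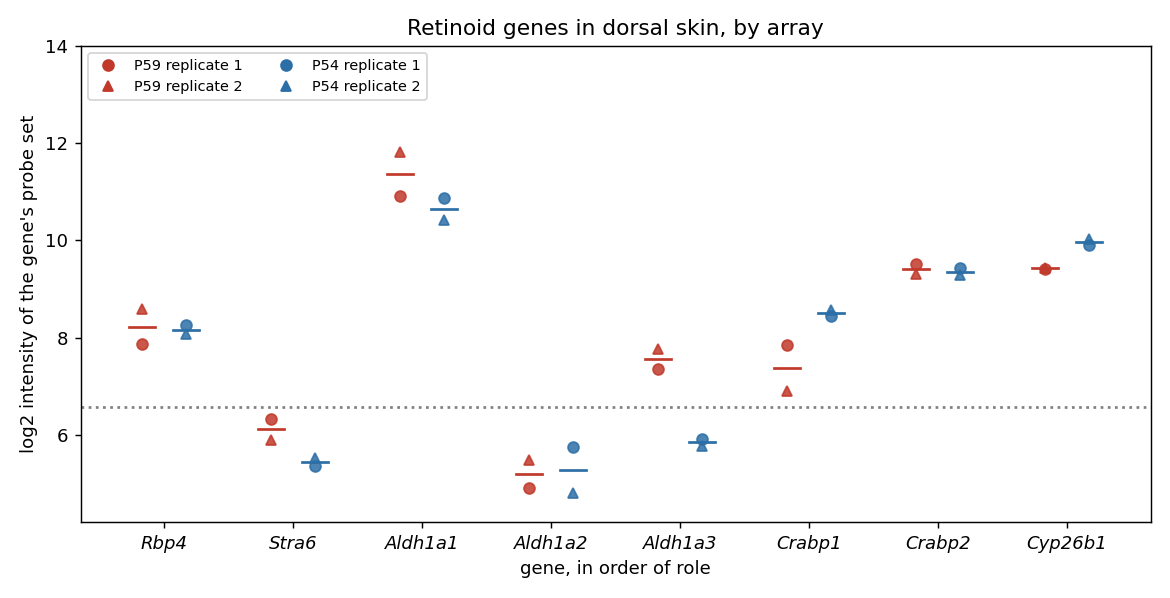
Log2 intensity (vertical axis) of the 8 measured retinoid genes on each array, with P59 in red to the left of P54 in blue; short lines are group means (n = 2) and the dotted line is the intensity filter at 6.58. Aldh1a3 lies above the filter on both P59 arrays and below it on both P54 arrays, whereas Crabp1 and Cyp26b1 lie lower on both P59 arrays.

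The promoter windows of Aldh1a1, Crabp1 and Cyp26b1 are shown because these genes, with Aldh1a3, were the 4 at an unadjusted p under 0.05. RefSeq windows (GRCm38.p6), reaching from 250 bases before to 50 after an annotated start, matched 7 of the 9 genes, and Aldh1a3 and Crabp2 were not matched. Capitals mark, on either strand, the GC box GGGCGG, the CCAAT box CCAAT, the TATA box TATAAA and the nuclear receptor half-site AGGTCA. Each is printed 5′ to 3′ on the gene's strand, and the downstream of 2 windows is given for Aldh1a1. They are chr9:54764498-54764797 on the plus strand for Crabp1, chr6:84593761-84594060 on the minus strand for Cyp26b1 and chr19:20601718-20602017 on the plus strand for Aldh1a1.
Crabp1: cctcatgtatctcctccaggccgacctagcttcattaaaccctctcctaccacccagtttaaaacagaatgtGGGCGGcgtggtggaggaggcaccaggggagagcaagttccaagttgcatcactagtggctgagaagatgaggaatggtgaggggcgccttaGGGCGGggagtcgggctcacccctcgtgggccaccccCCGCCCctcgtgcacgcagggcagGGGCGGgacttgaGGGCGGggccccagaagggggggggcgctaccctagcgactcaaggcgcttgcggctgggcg
Cyp26b1: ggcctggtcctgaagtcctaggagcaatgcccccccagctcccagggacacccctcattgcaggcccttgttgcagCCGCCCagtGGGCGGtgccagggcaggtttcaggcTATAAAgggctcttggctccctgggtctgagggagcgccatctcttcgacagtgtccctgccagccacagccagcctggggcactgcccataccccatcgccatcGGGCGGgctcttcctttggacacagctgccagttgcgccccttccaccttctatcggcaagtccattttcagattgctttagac
Aldh1a1: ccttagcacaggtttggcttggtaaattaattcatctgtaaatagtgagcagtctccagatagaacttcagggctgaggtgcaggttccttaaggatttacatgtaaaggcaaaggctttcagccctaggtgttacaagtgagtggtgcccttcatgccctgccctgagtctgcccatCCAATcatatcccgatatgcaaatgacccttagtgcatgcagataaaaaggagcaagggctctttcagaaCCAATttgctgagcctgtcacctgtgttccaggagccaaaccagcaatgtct

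The Crabp1 window held 5 GC boxes and was 65.0% G or C. The Cyp26b1 window held 3 GC boxes and 1 TATA box, with 62.3% G or C. The printed Aldh1a1 window held 2 CCAAT boxes and no GC box, with 47.0% G or C. Its upstream window, not printed, held no CCAAT box and no GC box, with 43.3% G or C. A GC box is common, occurring in 35.7% of all 32851 windows of this length, a CCAAT box in 37.4%, a TATA box in 13.6% and the half-site in 16.3%. The half-site letters AGGTCA were in none of the 3 windows printed, which says nothing of binding by a retinoid receptor outside or within them. These matches are a description of letters and not of sites in use.

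Uptake of retinol is represented by Rbp4 and Stra6. Rbp4 was at 7.86 and 8.59 on the P59 arrays and at 8.26 and 8.06 on the P54 arrays. The P59 values lay on either side of both P54 values, so the groups overlapped. Its difference was 0.06 (95% interval -0.55 to 0.68, adjusted p = 0.996), and it was -0.30 without P59 replicate 2.

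Stra6, the membrane receptor that takes retinol from Rbp4, was at 6.32 and 5.90 on the P59 arrays and at 5.35 and 5.52 on the P54 arrays. Both P59 values were higher, by a gap of 0.38 between the nearest arrays of the groups. All 4 values were below the intensity filter, and the gene was read from the fit without a filter. There its difference was 0.68 (SE 0.21, adjusted p = 0.679 over 18193 genes). It ranged from 0.46 to 0.89 when each array was left out in turn.

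Aldh1a3, an enzyme that makes retinoic acid from retinal, was at 7.35 and 7.77 on the P59 arrays and at 5.92 and 5.77 on the P54 arrays. As linear intensities these are 163.2 and 217.7 on the P59 arrays and 60.6 and 54.4 on the P54 arrays. The groups did not overlap, and the nearest arrays of the 2 groups were 1.43 apart. The group means were 7.56 ± 0.29 at P59 and 5.84 ± 0.11 at P54 (SD, n = 2 each), a log2 difference of 1.71 (SE 0.24, 95% interval 1.18 to 2.25) or 3.28-fold. Its adjusted p of 0.0668 in limma's fit over 10916 genes, where it ranked number 5 by p, did not pass. In limma's fit of all 18193 genes, without a filter, its adjusted p was 0.312.

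The P54 mean of Aldh1a3 was below the intensity filter, so the gene entered the fit through its P59 values, and its fold change is rough. With values under the filter raised to the filter level, an alternative added after the data were seen, the difference was 0.98 (adjusted p = 0.331). Without P59 replicate 1 the difference was 1.92 and the adjusted p 0.00829. It was 1.79 (adjusted p = 0.00585) without P54 replicate 1, 1.64 (0.0389) without P54 replicate 2 and 1.51 (0.0549) without P59 replicate 2. In those limma fits between 29 and 402 genes of all tested passed the adjusted threshold.

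The other probe sets of Aldh1a3 also placed both P59 arrays above both P54 arrays, at smaller differences. The second set (1417642_at) was at 5.95 and 5.84 on the P59 arrays and at 4.84 and 5.09 on the P54 arrays, a difference of 0.93. The third set (1427395_a_at) was at 5.56 and 5.37 on the P59 arrays and at 5.03 and 4.89 on the P54 arrays, a difference of 0.50. These sets lay below the intensity filter on all 4 arrays. The mean of the 3 sets differed by 1.05, and was itself below the filter of the fit on means, so it was not tested there.

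**Figure D2:**
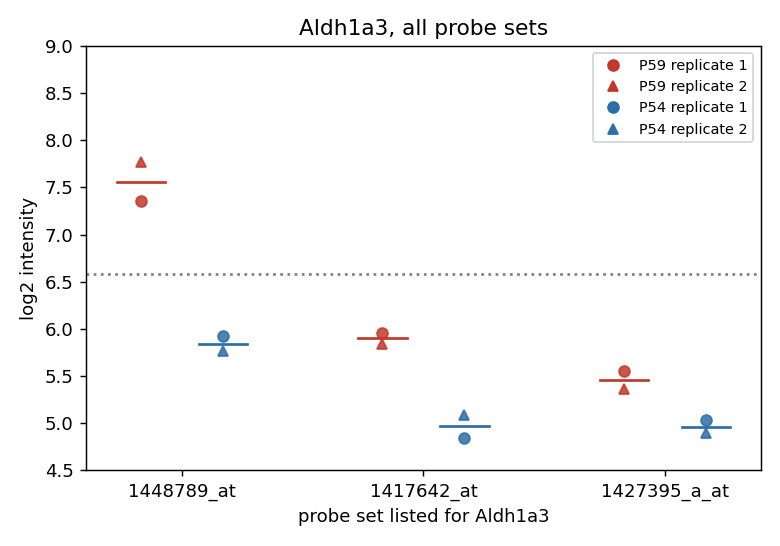
Log2 intensity (vertical axis) of the 3 probe sets listed for Aldh1a3, with P59 in red to the left of P54 in blue, lines for group means (n = 2) and the intensity filter dotted at 6.58. In each set both P59 arrays lie above both P54 arrays, by 1.71, 0.93 and 0.50 on average, and the P59 values of the set on the left lie above the filter.

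Genes of the growing hair follicle were also higher at P59. The 10 measured inner root sheath markers (of 11 listed) summed to 13893 and 3894 on P59 replicates 1 and 2, and to 2295 and 2269 on the P54 arrays, with 9 of the 10 higher at P59. The lower one, Gata3, was at 10.3 and 10.5 on the P59 arrays and at 10.5 and 10.8 on the P54 arrays. Gata3 made up most of both P54 sums, so their closeness says little of the root sheath keratins. The 11 measured hair shaft markers (of 12) summed to 5322 and 1265 on the P59 arrays and to 824 and 608 on the P54 arrays, with 10 of 11 higher. In limma's fit 0 markers of either list passed the adjusted threshold. At an unadjusted p under 0.05 there were 6 of 8 tested root sheath and 5 of 6 tested shaft markers, each of them higher, against 3.47% of all genes tested. All of these but Tgm3 and Krt83 had a P54 mean below the intensity filter. They entered the fit through their P59 values, so nothing is read from these counts. Of all 18193 genes with a probe set, 62.3% were higher at P59. Krt25, a root sheath keratin with the largest difference of that list (4.51, adjusted p = 0.179), was at 11.64 and 9.09 on the P59 arrays and at 7.21 and 4.49 on the P54 arrays. No marker was at 0, since the lowest intensity in the table was 6.41. Both follicle lists were highest on P59 replicate 1, whereas the set that represents Aldh1a3 was highest on P59 replicate 2 and its other sets on P59 replicate 1. The part of these markers in the Aldh1a3 difference was not tested.

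Aldh1a1, a retinal dehydrogenase of the same family, was at 10.90 and 11.81 on the P59 arrays and at 10.86 and 10.43 on the P54 arrays. P59 replicate 2 alone was clearly high, and P59 replicate 1 exceeded P54 replicate 1 by 0.04. The group means were 11.36 ± 0.64 at P59 and 10.65 ± 0.31 at P54 (SD, n = 2 each), a difference of 0.71 (SE 0.31, adjusted p = 0.764). Without P59 replicate 2 it was 0.26 (adjusted p = 0.993), and without P59 replicate 1 it was 1.17 (adjusted p = 0.0513).

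Aldh1a2, the third enzyme of this step, was at 4.91 and 5.48 on the P59 arrays and at 5.75 and 4.80 on the P54 arrays. All 4 values were below the intensity filter and the groups overlapped. The difference was -0.08 (95% interval -0.91 to 0.75, adjusted p = 0.983 in the fit without a filter), or -0.36 without P59 replicate 2. Of the enzymes of this step, Aldh1a3 and Aldh1a1 thus had groups that did not overlap, at gaps of 1.43 and 0.04. The Aldh1a1 difference lay mostly in 1 array, and Aldh1a2 had a dim, overlapping signal. Whether these differences differ from each other was not tested.

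Crabp1, a cytoplasmic binding protein of retinoic acid, was at 7.84 and 6.91 on the P59 arrays and at 8.43 and 8.56 on the P54 arrays. Both P59 values were lower than both P54 values, and they lay 0.94 apart from each other. The group means were 7.38 ± 0.66 at P59 and 8.50 ± 0.09 at P54 (SD, n = 2 each), a difference of -1.12 (SE 0.30, 95% interval -1.80 to -0.45, adjusted p = 0.448). In linear terms P59 was at 0.459 of P54. Without P59 replicate 2 the difference was -0.65 (adjusted p = 0.581), and without P59 replicate 1 it was -1.59 (adjusted p = 0.0140).

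Crabp2, the related binding protein that delivers retinoic acid to its receptor, was at 9.52 and 9.31 on the P59 arrays and at 9.43 and 9.28 on the P54 arrays. The groups overlapped, and the difference was 0.06 (95% interval -0.45 to 0.57, adjusted p = 0.991), or 0.17 without P59 replicate 2. The 9 measured dermal papilla markers, of 10 listed, summed to 1804 and 1909 on the P59 arrays and to 1716 and 1579 on the P54 arrays. Of these, 7 were higher and 2 lower, where 62.3% of all 18193 genes were higher. In limma's fit 0 of the 4 tested passed the adjusted threshold, as at an unadjusted p under 0.05. Crabp1 is known from the dermal papilla of growing follicles. Beside its lower P59 level, the papilla marker sum was higher on both P59 arrays, mainly through Ptch1. Without it the other 8 markers summed to 1034 and 1056 on the P59 arrays and to 1069 and 912 on the P54 arrays, so the groups overlapped. The relation of Crabp1 to these markers was not tested.

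Cyp26b1, which breaks retinoic acid down, was at 9.41 and 9.43 on the P59 arrays and at 9.90 and 10.02 on the P54 arrays. Replicates were close in both groups, with the nearest arrays of the groups 0.46 apart. The means were 9.42 ± 0.01 at P59 and 9.96 ± 0.09 at P54 (SD, n = 2 each), a difference of -0.53 (SE 0.22, adjusted p = 0.743), or 0.690 of the P54 level. The difference stayed between -0.60 and -0.47 whichever array was left out. That range was the narrowest of the 8 measured genes, and the adjusted threshold was passed in none of those fits.

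**Figure D3:**
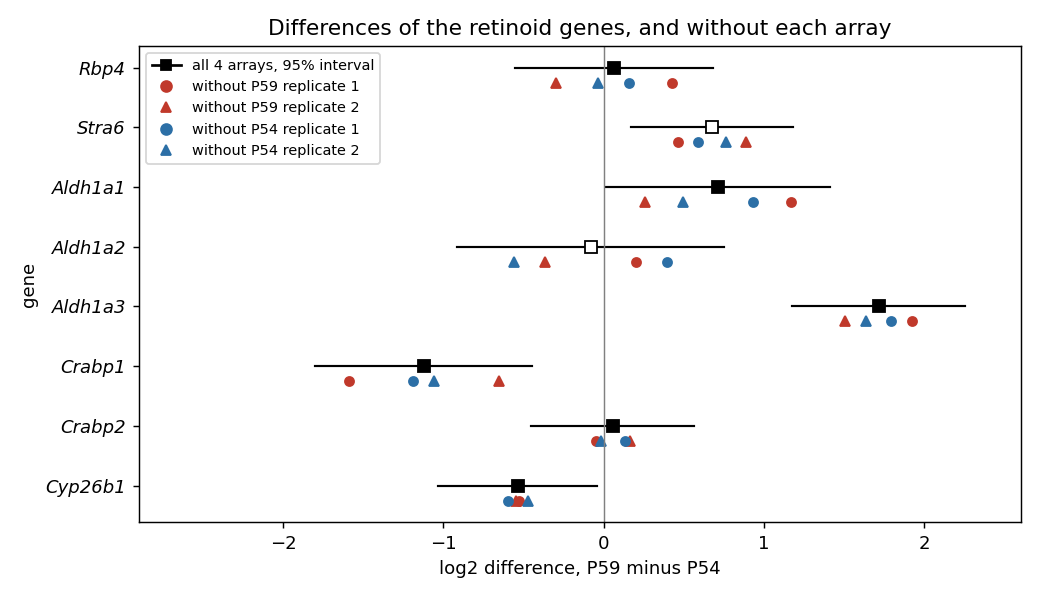
Log2 difference, P59 minus P54 (horizontal axis), of the 8 measured genes: squares with lines are limma's estimate and 95% interval from all 4 arrays (open squares, below the intensity filter and read from the fit without it), and coloured points below are the differences without each array in turn. Aldh1a3 stays between 1.51 and 1.92 and Cyp26b1 between -0.60 and -0.47, while points of Rbp4, Aldh1a2 and Crabp2 fall on both sides of 0.

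A list of 65 other genes of retinoid uptake, storage, oxidation, breakdown, reception and response was set beside the named ones. Of these, 58 had a probe set and 43 were tested. In limma's fit over all genes 0 passed the adjusted threshold in either direction, and 3 higher and 3 lower had an unadjusted p under 0.05. All genes gave 3.47% higher and 3.01% lower at that limit. With the mean of all probe sets in place of the brightest set, limma gave 3 of 45 tested genes of the list at that limit, and 705 of all 10916. The genes of the list described below are read from their brightest set alone, and their other sets are not given here. The list's median difference was 0.07, the same to 2 decimals as that of all genes.

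Among the carriers, Ttr, transthyretin, which binds Rbp4 in plasma, was at 7.19 and 7.54 on the P59 arrays and at 6.75 and 6.73 on the P54 arrays (difference 0.62, adjusted p = 0.639). Scarb1, a scavenger receptor that takes up carotenoids, was at 9.29 and 7.58 on the P59 arrays and at 9.33 and 9.55 on the P54 arrays. Its difference of -1.0 (adjusted p = 0.764) was -0.15 without P59 replicate 2. Lipe is the hormone-sensitive lipase that can release retinol from its esters and also fat from adipocytes. It was at 8.51 and 7.05 on the P59 arrays and at 8.79 and 9.47 on the P54 arrays. Its difference was -1.35 (adjusted p = 0.511), and -0.62 without P59 replicate 2. The 7 measured adipocyte markers, Lipe among them, summed to 13179 and 15308 on the P59 arrays and to 18194 and 16111 on the P54 arrays. Of the 7, 6 were lower, against 6852 of all 18193 genes. The part of adipocytes in the Lipe difference was not tested.

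For the conversion of retinol to retinal, all 15 listed dehydrogenases had a probe set, 12 were tested, and 0 had an unadjusted p under 0.05 in limma's fit or passed the adjusted threshold. Their median difference was 0.16, with a range from -0.21 to 0.61. Rdh10, the main retinol dehydrogenase of the mouse embryo, was at 8.55 and 8.79 on the P59 arrays and at 8.55 and 8.66 on the P54 arrays. Its difference was 0.06 (95% interval -0.44 to 0.57), and -0.05 without P59 replicate 2. Adh1, an alcohol dehydrogenase that also oxidises retinol, had the largest of these differences (0.61, adjusted p = 0.814), which was 0.17 without P59 replicate 2, and was named for it after the values were seen. Dhrs3, which returns retinal to retinol, differed by 0.27 (adjusted p = 0.943), and by 0.12 without P59 replicate 2. Lrat, which stores retinol as esters, and Cyp26a1, a relative of Cyp26b1, were below the intensity filter and differed by 0.05 and 0.0028, or by -0.29 and -0.27 without P59 replicate 2.

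Of the receptors, Rarg, the main retinoic acid receptor of epidermis, was at 9.59 and 8.19 on the P59 arrays and at 9.76 and 10.34 on the P54 arrays. Both P59 values were lower, that of P59 replicate 1 by 0.16 than the nearer P54 array. The difference was -1.16 (SE 0.40, adjusted p = 0.599), and -0.45 without P59 replicate 2. Rara was at 6.15 and 5.55 on the P59 arrays and at 6.47 and 6.63 on the P54 arrays, a difference of -0.70 on a probe set below the intensity filter on average, and -0.40 without P59 replicate 2. Rxra (-0.24), Rxrb (-0.27) and Rxrg (-0.33) had negative differences as well, with adjusted p of 0.947, 0.934 and 0.951, and Rarb, below the filter, differed by 0.24. Without P59 replicate 2 these were -0.04 for Rxra, -0.19 for Rxrb, -0.14 for Rxrg and 0.20 for Rarb. Rxrg turned to 0.21 without P54 replicate 1, and Rarb to -0.28 without P54 replicate 2. Fabp5, a lipid-binding protein that can carry retinoic acid to the nucleus, differed by 0.17 (adjusted p = 0.954). All 7 basal epidermal markers were lower at P59 too, where 6852 of all 18193 genes were lower. Of these markers, 3 had an unadjusted p under 0.05 in limma's fit, against 3.01% of all genes tested that were lower at that limit. The part of basal epidermis in the Rarg difference was not tested.

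Among 10 measured genes known as retinoic acid targets in other tissues, 6 were higher and 4 lower at P59, where 62.3% of all 18193 genes were higher. Tgm2, a transglutaminase, was at 10.71 and 10.54 on the P59 arrays and at 10.12 and 9.86 on the P54 arrays (difference 0.63, adjusted p = 0.618). Ret, a receptor tyrosine kinase, was at 7.03 and 7.10 on the P59 arrays and at 6.64 and 6.32 on the P54 arrays (difference 0.58, adjusted p = 0.714). The P54 mean of Ret, 6.48, was below the intensity filter, so Ret entered the fit through its P59 values. Tgm2 and Ret were both higher on each P59 array, and the other 7 tested targets had an unadjusted p above 0.05. Some differences of the wider list depended on which P59 array was kept. Without P59 replicate 1 they were 1.06 for Adh1, -1.53 for Dgat1, -2.09 for Lipe, -1.86 for Rarg and -1.86 for Scarb1. Without P59 replicate 2 the same genes differed by 0.17, 0.12, -0.62, -0.45 and -0.15, in that order.

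**Figure D4:**
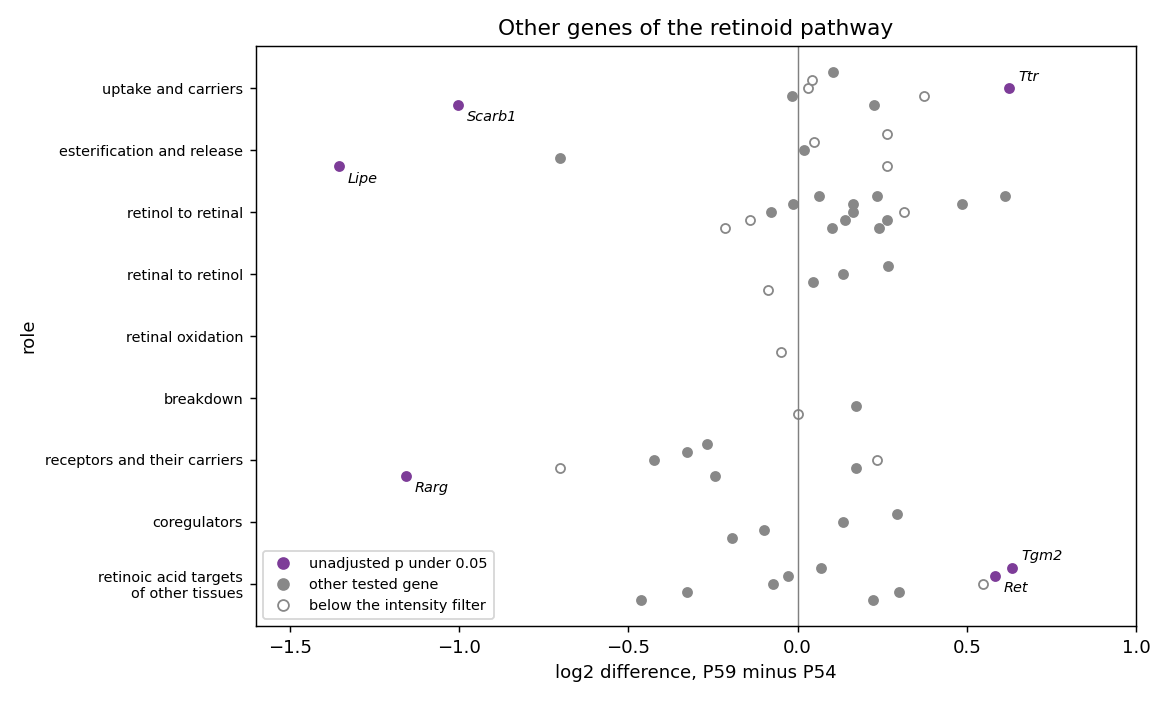
Log2 difference, P59 minus P54 (horizontal axis), of the 58 measured genes of the wider retinoid list, grouped by role down the page; purple points had an unadjusted limma p under 0.05, grey points did not, and open points were below the intensity filter and not tested. Ttr, Tgm2 and Ret lie to the right and Scarb1, Lipe and Rarg to the left, while genes of the step from retinol to retinal lie between -0.21 and 0.61.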

How the data were processed

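The authors deposited 1 linear intensity per probe set and array; the submitters' processing notes name RMA and Affymetrix Expression Console, and neither version nor genome build is given in the sources used here. Intensity ran from 6.41 to 24000 and was taken to log2 with no pseudocount. The platform annotation held by GEO may be out of date. It gave 34945 non-control probe sets 1 gene, 932 several and left 9211 unlisted; 34741 matched RefSeq (GRCm38.p6) by Entrez identifier, used for names and promoter sequence. The brightest set stood for a gene, and genes whose mean log2 intensity exceeded the 40th percentile were tested.

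The P59 and P54 arrays were fitted in limma 3.58.1 under R 4.3.3 (lmFit, eBayes), with Benjamini-Hochberg adjustment over 10916 genes, threshold 0.05, 2 residual and 8.18 prior degrees of freedom. Members below the filter were read from a fit of 18193 genes. No exact permutation test could reach 0.05, since 4 arrays split into 2 groups of 2 in 3 ways. Arrays give no read depth, and their number limits precision. The procedure was tested on simulated data drawn independently for each array, with no array set apart as P59 replicate 2 was. That test therefore does not measure how reliable the procedure is on these arrays.

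The members, the pathway and marker lists, and the tests were chosen with earlier results of these data known. Named are the members, listed genes at an unadjusted p under 0.05, receptors and core enzymes, and the 5 genes with profiles nearest to that of the member with the largest difference. Of the marker lists, each sum is given once.

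Alternatives changed the filter, the treatment of probe sets, scaling, variance model, array weights or replicate block, or left out an array. Raising dim values to the filter level was added after the data were seen.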

Additional observations from a re-analysis of the deposited data

How the results depend on the processing

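With 2 arrays a group the counts of calls depended on the fit. Of all genes 2 passed the adjusted threshold. There were 0 without the intensity filter, with a filter at the 60th percentile, with the mean of all probe sets, with each probe set tested, after repeated quantile normalization and with dim values raised to the filter level, where limma gave 457 to 1122 at an unadjusted p under 0.05. There were 49 with arrays centred on their median, 9 with array weights, and 29 to 402 with an array left out. The share of higher genes among those at an unadjusted p under 0.05 was 53.5%, and over the alternatives it lay on both sides of that. It was 63.2% after repeated quantile normalization, 64.1% without the filter and 62% without P54 replicate 1, against 38.8% with each probe set tested and 38.1% without P54 replicate 2. In the other alternatives it ran from 47% to 59.9%, with the highest of these for centred arrays. Of the members 0 passed, and Aldh1a3 alone with centred arrays (1; adjusted p = 0.00216) and with array weights (1; adjusted p = 0.0226), with 0 to 2 when an array was left out. Over its 12 alternatives the adjusted p of Aldh1a3 ran from 9.3e-06 to 0.580, and it could not be tested with the stricter filter or the mean of its sets. Of the wider list 0 to 5 passed with an array left out.

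The replicate block changed calls. The labels do not say that replicate numbers pair samples. The deviations of same-numbered arrays correlated at -0.04 over genes. With 2 arrays a group, and P59 replicate 2 apart from the rest, this value cannot decide whether samples were paired, which stays unknown. With the block 156 genes passed, among them 2 members (Aldh1a3, adjusted p = 9.3e-06, and Crabp1, adjusted p = 0.0236) and 2 genes of the wider list (Lipe and Rarg).

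The members' median difference lay between -0.067 and 0.315 with an array left out. The sign turned for Aldh1a2 (-0.56 to 0.40, at 0.20 without P59 replicate 1), Crabp2 (-0.050 to 0.17, at -0.02 without P54 replicate 2) and Rbp4 (-0.30 to 0.43, at -0.03 without P54 replicate 2). No other member changed sign in any alternative run. With dim values raised to the filter level Stra6 and Aldh1a2 have no difference to give. The cause of these changes was not tested.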

Other observations

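Among the 10915 other genes tested, 5 had log2 profiles over the 4 arrays nearest to that of Aldh1a3, each profile centred on its own mean and likeness measured as Euclidean distance in log2 units. They were C1qtnf3, a secreted C1q and TNF related protein (distance 0.19), Pla1a, a phospholipase (0.20), the terminal complement component C6 (0.39), the C5a receptor C5ar1 (0.41) and Itgbl1 (0.42). C1qtnf3 was at 10.45 and 11.09 on the P59 arrays and at 9.18 and 8.86 on the P54 arrays. Pla1a was at 7.69 and 7.91 on the P59 arrays and at 6.17 and 6.18 on the P54 arrays. Pla1a and C5ar1 had P54 means below the intensity filter (6.17 and 6.27), so both entered the fit through their P59 values. The differences of the 5 genes ran from 1.30 for Itgbl1 to 1.79 for C6, and none passed the adjusted threshold in limma's fit (adjusted p = 0.0668 for Pla1a to 0.179 for C5ar1 and Itgbl1). With 4 arrays in 2 groups, likeness of this kind mostly restates a shared difference between the groups.

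Of the remaining marker lists, suprabasal epidermis was lower and macrophages higher by their sums on both P59 arrays, with 0 markers of either past the adjusted threshold in limma's fit. The 9 suprabasal markers summed to 70055 and 73084 on the P59 arrays and to 82617 and 85375 on the P54 arrays. Of the 9, 7 were lower, against 6852 of all 18193 genes. Just 1, a lower one, had an unadjusted p under 0.05, against 3.01% of all genes tested. The 5 measured sebaceous gland markers summed to 21590 and 23856 on the P59 arrays and to 19955 and 21843 on the P54 arrays. The 10 macrophage markers summed to 12085 and 12895 on the P59 arrays and to 10300 and 9459 on the P54 arrays. Of the 10, 9 were higher, against 62.3% of all genes. Higher at an unadjusted p under 0.05 were 4, against 3.47% of all genes tested. Muscle markers summed to 112741 and 89420 on the P59 arrays and to 103560 and 81176 on the P54 arrays, and pigment cell markers to 920 and 949 on the P59 arrays and to 784 and 682 on the P54 arrays. Of the 5 pigment cell markers 3 were higher, against 62.3% of all genes, and 2 lower, Dct (-0.36) and Pmel (-0.33). Mlana had the largest difference (1.19), at 7.71 and 9.05 on the P59 arrays and at 7.31 and 7.06 on the P54 arrays.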
